A study of Mus musculus with 12 samples.

Results

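The genes studied here are 10 genes of fatty acid synthesis and desaturation: Srebf1, Acly, Acaca, Fasn, Elovl6, Scd1, Scd2, Fads1, Fads2 and Acsl3. They were picked by symbol from the 32544 genes of the count table, and all 10 were among the 14279 genes that passed the filter on low counts. The 10 genes were chosen with earlier results of these data known, so the counts called below describe them and are not an independent test. RNA was sequenced from the mouse fibroblast line 3T3, with 4 groups and 3 libraries in each. Cells were left untreated or exposed for 24 h to extracellular vesicles (EVs), the membrane particles that cells shed, taken from MDA-MB-468 human breast cancer cells. The vesicle donors were control cells (shCon), cells with CRIPTO knocked down (shCr) or cells overexpressing CRIPTO (CrOE), CRIPTO being a cell-surface protein whose mouse gene is Tdgf1. The 12 libraries include no separate vector control for the CrOE donor line, and the EV amount given to the cells is not given in the sources used here. The labels do not say that replicates came from separate cultures, so p-values measure the spread between these libraries, which may be technical.

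Fatty acids are built in the cytosol from acetyl-CoA. Acly makes acetyl-CoA from exported citrate, Acaca carboxylates it to malonyl-CoA, and Fasn joins the units into palmitate. Elovl6 lengthens palmitate, Scd1 and Scd2 desaturate saturated acyl-CoAs to monounsaturated ones, and Fads1 and Fads2 desaturate polyunsaturated chains. Acsl3 activates fatty acids to acyl-CoAs and is known for its place on lipid droplets. Srebf1 encodes SREBP-1, a transcription factor held in the endoplasmic reticulum and cleaved to act on lipogenic genes, so its activity is controlled beyond its mRNA level.

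The mean levels of the 9 enzyme genes stood in the same order in every case, highest with shCr EVs, then with shCon EVs, then in untreated cells and lowest with CrOE EVs. Srebf1 mRNA was not called in any of the 6 pairwise comparisons. With shCon EVs, 8 of the 10 genes were higher than in untreated cells and none was lower by edgeR's quasi-likelihood test (adjusted p under 0.05), where 18% of all genes tested passed upward and 20.2% downward. With shCr EVs, 9 were higher and none lower, against 18.4% and 18.8% of all genes. With CrOE EVs, 9 were lower and none higher, against 37% and 36.7% of all genes. The median log2 fold change of the 10 genes was 0.405 with shCon EVs, 0.657 with shCr EVs and -1.14 with CrOE EVs, while that of all tested genes was 0.00694, 0.0199 and 0.00775. These comparisons share the untreated libraries. In each of the 3 EV groups the levels of all 10 genes did not overlap with untreated cells, against 54.2%, 41.9% and 77.7% of all genes.

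Summed over the 10 genes, the share of a library's counts was 0.685% ± 0.0139 (SD, n = 3) in untreated cells, 0.896% ± 0.00134 with shCon EVs, 0.996% ± 0.0271 with shCr EVs and 0.302% ± 0.00581 with CrOE EVs. In bulk RNA, fewer cells with a transcript and less of it per cell cannot be told apart. The libraries held 25960054 to 37774020 estimated counts, and mitochondrially encoded genes took 0.495% to 1.70% of them. Replicate 1 of the shCr EV group stood apart from its replicates, at a chi-square per gene of 43.4 and 63.6 against 10.4 between the other 2. Without it, 9 of the 10 genes were still called against untreated cells, 4 against shCon EVs and 9 against CrOE EVs. Of all genes, 4254 to 6698, 632 to 1396 and 10066 to 11003 were called in these comparisons with any 1 library left out. The CrOE EV columns of the count table were matched to their samples by elimination, because their heading names the protein alone. Tdgf1 had 0 to 3 counts per library, so a difference in the recipient cells' own gene was not detectable at this depth, and the CRIPTO level of the donors was not analysed here.

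**Figure D1:**
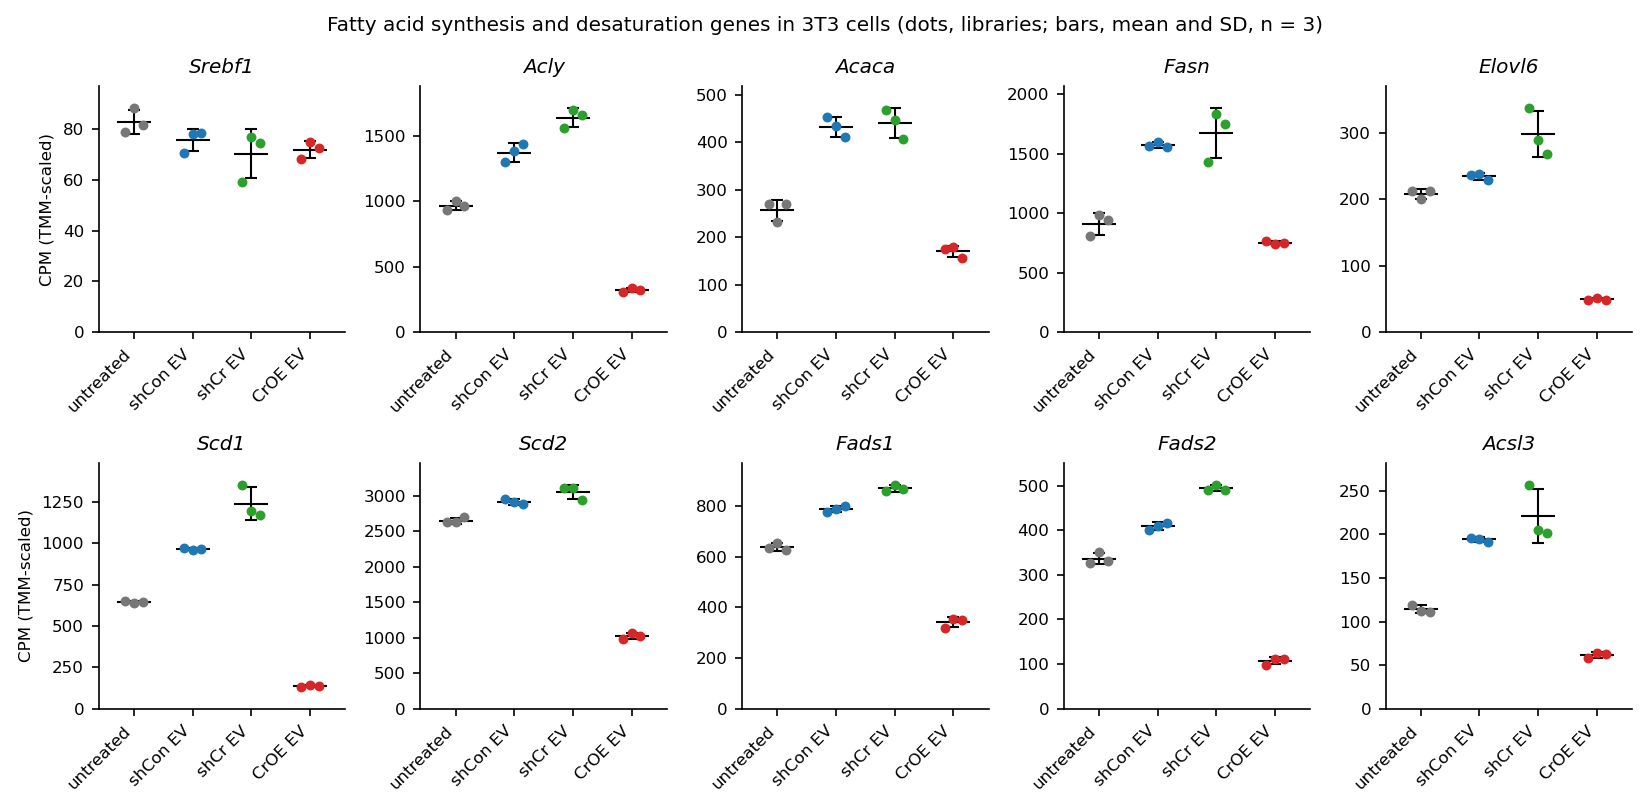
Level of each gene in every library, as CPM (counts relative to library size, linear axes from 0), by group. Dots are the 3 libraries and bars the mean and SD; in the 9 enzyme panels the CrOE EV libraries lie lowest, and in the Srebf1 panel the EV groups lie together.

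Srebf1, the regulator, passed the test in no comparison. Levels are given as CPM, the gene's counts relative to library size after scaling by the trimmed mean of M-values (TMM). Srebf1 stood at 78.8, 88.2 and 81.7 CPM in the untreated libraries and at 70.6, 78.1 and 78.3 with shCon EVs. It stood at 59.2, 76.9 and 74.7 CPM with shCr EVs and at 68.4, 74.9 and 72.5 with CrOE EVs. The EV groups overlapped with each other and lay just under the untreated range. The log2 fold changes against untreated cells were -0.13, -0.24 and -0.20 for shCon, shCr and CrOE EVs (SE 0.089, 0.089 and 0.089; edgeR adjusted p = 0.275, 0.0538 and 0.0544). The shCr value passed the threshold without untreated replicate 1 (edgeR adjusted p = 0.0488), without shCr EV replicate 2 (0.0280) and without shCr EV replicate 3 (0.0471). By DESeq2 the adjusted p was 0.0361 for shCr EVs and 0.0387 for CrOE EVs. Between EV groups the edgeR adjusted p ranged from 0.476 to 0.749. Srebf1 shares 1.17% of its exon bases with the miRNA gene Mir6922 and 1.93% with Rai1 on the opposite strand, and whether counting used strand is not given in the sources used here. Rai1 stood at 76.7 ± 6.79 CPM in untreated cells and 135 ± 5.18 with CrOE EVs (SD, n = 3 each).

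SREBP proteins act at sterol regulatory elements, often beside CCAAT and GC boxes, and the promoters were searched for these letters. RefSeq promoters on build GRCm38.p6, from 250 bases before to 50 after the start, were matched for 7 of the 10 genes, with 3 promoters for Srebf1; none was matched for Scd1, Scd2 and Fads1. The 3 shown are that of Fasn, the enzyme gene with the smallest fall with CrOE EVs, and those of Acly and Fads2, whose levels ran most alike over the libraries. Capitals mark matches to CCAAT or GGGCGG on either strand and, in Acly, the match to the sterol element core TCACNCCAC with 1 mismatch. They lie at chr11:120824498-120824797 (Fasn), chr11:100527951-100528250 (Acly) and chr19:10101454-10101753 (Fads2), all on the minus strand, and are written 5′ to 3′ on that strand.
Fasn promoter: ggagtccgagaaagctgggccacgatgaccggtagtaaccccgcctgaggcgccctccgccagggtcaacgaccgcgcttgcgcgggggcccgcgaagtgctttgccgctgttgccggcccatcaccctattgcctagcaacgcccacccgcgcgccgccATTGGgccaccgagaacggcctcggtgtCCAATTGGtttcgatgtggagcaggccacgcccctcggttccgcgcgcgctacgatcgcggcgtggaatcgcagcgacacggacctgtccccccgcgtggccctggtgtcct
Acly promoter: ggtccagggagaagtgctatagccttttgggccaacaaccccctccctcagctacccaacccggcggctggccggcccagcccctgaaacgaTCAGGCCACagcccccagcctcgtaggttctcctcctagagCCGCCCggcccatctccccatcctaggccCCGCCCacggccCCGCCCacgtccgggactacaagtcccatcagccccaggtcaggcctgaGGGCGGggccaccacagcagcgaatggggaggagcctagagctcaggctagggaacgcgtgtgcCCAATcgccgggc
Fads2 promoter: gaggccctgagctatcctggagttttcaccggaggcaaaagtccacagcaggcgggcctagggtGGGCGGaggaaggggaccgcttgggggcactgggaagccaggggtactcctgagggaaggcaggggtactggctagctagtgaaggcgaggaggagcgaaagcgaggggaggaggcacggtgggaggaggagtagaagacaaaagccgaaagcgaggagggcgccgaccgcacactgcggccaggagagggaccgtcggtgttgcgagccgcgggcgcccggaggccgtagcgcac
The Fasn promoter held 3 matches to CCAAT, the first base of each at -90, -62 and -59 from the start, the last 2 sharing bases on opposite strands. The Acly promoter held 4 matches to GGGCGG between -117 and -22, 1 match to CCAAT at 38 and the sterol core with 1 mismatch at -158. The Fads2 promoter held 1 match, to GGGCGG at -186. Over the 9 promoters of the 7 genes, 5 held CCAAT and 5 held GGGCGG, against 37.4% and 35.7% of the 32851 promoters in the table. The exact sterol core, on either strand, was in 0 of the 9 and in 1.24% of all promoters. With 1 mismatch it was in 1 of the 9 and in 24.2% of all, and the E-box CACGTG was in 0 of the 9 and 7.15% of all. A match describes these letters, and no match says only that they are not in this window.

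The 3 enzymes from citrate to palmitate rose with shCon and shCr EVs and fell with CrOE EVs. Fasn stood at 805, 985 and 943 CPM in the untreated libraries and at 1568, 1599 and 1555 CPM with shCon EVs. With shCr EVs it stood at 1432, 1831 and 1750.1 CPM, and with CrOE EVs at 763, 740.1 and 748 CPM. The shCon and shCr ranges lay above the untreated range and overlapped with each other, and the CrOE libraries lay just below it. Fasn rose by 0.79 on the log2 scale (SE 0.089, edgeR adjusted p = 1.97e-05) with shCon EVs and by 0.88 (SE 0.089, edgeR adjusted p = 7.21e-06) with shCr EVs. With CrOE EVs it fell by 0.28 (SE 0.088, edgeR adjusted p = 0.0120), the smallest estimate of the 9 enzymes, and without untreated replicate 2 that call was lost (adjusted p = 0.0550).

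Acly, which feeds the chain, had 935, 999.7 and 963 CPM in untreated cells and 1298, 1380.0 and 1437 with shCon EVs. It had 1556, 1697 and 1655 CPM with shCr EVs and 305, 338 and 323 with CrOE EVs. No group overlapped with another. Acly rose by 0.51 and 0.76 on the log2 scale with shCon and shCr EVs and fell by 1.58 with CrOE EVs (SE 0.058, 0.058 and 0.059; edgeR adjusted p = 2.27e-05, 5.75e-07 and 6.26e-11), the last a 3.00-fold lower level. Acaca, the carboxylase, ranged over 231 to 270.0 CPM in untreated cells, 411 to 452 with shCon EVs, 406 to 467 with shCr EVs and 157 to 178 with CrOE EVs. The log2 fold changes of Acaca were 0.75, 0.78 and -0.60 (SE 0.077, 0.077 and 0.077; edgeR adjusted p = 8.83e-06, 5.78e-06 and 1.25e-05). Its count is uncertain, since 33.5% of the 31-base stretches of Acaca transcripts occur in another gene. That gene is mostly Gm5182, a symbol not found in the count table, so its level was not measured here.

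Scd1, the desaturase of palmitate and stearate, had the largest fall of the 10 genes with CrOE EVs. It stood at 649.9, 639.9 and 647 CPM in untreated cells, at 973, 957 and 963 with shCon EVs and at 1353, 1195 and 1171 with shCr EVs. With CrOE EVs it stood at 130.1, 144 and 137 CPM, and no group overlapped with another. Scd1 rose by 0.58 and 0.94 on the log2 scale with shCon and shCr EVs and fell by 2.23 with CrOE EVs (SE 0.060, 0.060 and 0.062; edgeR adjusted p = 9.18e-06, 1.20e-07 and 4.33e-12), the last a 4.71-fold lower level.

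Elovl6, the elongase, came next in the size of its fall. It had 213, 199.95 and 212 CPM in untreated cells, 237, 238 and 229 with shCon EVs, 337, 290.1 and 269 with shCr EVs and 49.1, 52.1 and 48.7 with CrOE EVs. The groups did not overlap, but the gap between untreated and shCon EV libraries was narrow and was not called (log2 fold change 0.17, SE 0.071, edgeR adjusted p = 0.0732). A model of those 2 groups alone did call it (adjusted p = 0.0110). Elovl6 rose by 0.52 (SE 0.071, edgeR adjusted p = 9.20e-05) with shCr EVs and fell by 2.06 (SE 0.075, edgeR adjusted p = 4.98e-11) with CrOE EVs, a 4.16-fold lower level. Of its 31-base stretches, 6.52% occur in another gene, mostly Gm11295, which had 0 to 7 counts per library.

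Scd2, the paralog of Scd1, had 2623, 2627 and 2696 CPM in untreated cells and 2958, 2909 and 2878 with shCon EVs. It had 3113, 3107 and 2935 CPM with shCr EVs and 978, 1068 and 1018 with CrOE EVs. The CrOE libraries lay far below the rest, while the shCon and shCr ranges overlapped. Scd2 rose by 0.14 and 0.20 on the log2 scale with shCon and shCr EVs and fell by 1.38 with CrOE EVs (SE 0.047, 0.047 and 0.048; edgeR adjusted p = 0.0346, 0.00410 and 3.08e-11). The call for shCon EVs was lost when any 1 of the 6 libraries compared was left out (edgeR adjusted p 0.0579 to 0.145). That left 7 of the 10 genes called, where 4250 to 5539 of all genes were called. The call was also lost without the low-count filter (0.0979). Scd1 and Scd2 share 8.18% and 6.81% of their 31-base stretches with another gene, mostly Scd3, which had 5 to 26 counts per library, and Scd2 shares 1.12% of its exon bases with Mir5114. For stretches of 75 bases the shares were 3.15% for Scd1, mostly with Scd3, and 1.78% for Scd2, mostly with Scd1.

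Fads2, the first desaturase of the polyunsaturated chain, had 327, 352 and 331 CPM in untreated cells and 399.8, 410.3 and 417 with shCon EVs. It had 489.7, 502 and 490.2 CPM with shCr EVs and 98.0, 111 and 112 with CrOE EVs. Its groups were all separate, with log2 fold changes of 0.28, 0.55 and -1.65 against untreated cells (SE 0.056, 0.056 and 0.058; edgeR adjusted p = 0.00174, 7.47e-06 and 3.46e-11). Fads1, the later desaturase of that chain, ranged over 627 to 657 CPM in untreated cells, 779.6 to 803 with shCon EVs, 859 to 885 with shCr EVs and 320.4 to 355 with CrOE EVs. The log2 fold changes of Fads1 were 0.30, 0.44 and -0.91 (SE 0.049, 0.049 and 0.050; edgeR adjusted p = 0.000373, 1.52e-05 and 2.60e-09).

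Acsl3, the acyl-CoA synthetase, ranged over 111 to 119 CPM in untreated cells, 191 to 196 with shCon EVs, 202 to 257 with shCr EVs and 57.6 to 63.8 with CrOE EVs. The groups were separate, and replicate 1 of shCr EVs was the highest library. The log2 fold changes of Acsl3 were 0.77, 0.95 and -0.90 (SE 0.082, 0.082 and 0.083; edgeR adjusted p = 1.30e-05, 1.70e-06 and 5.11e-07). Acsl3 shares 5.60% of its exon bases with Utp14b on the same strand. Utp14b had 17.6 ± 0.596 CPM in untreated cells and 24.5 ± 1.69, 29.0 ± 2.73 and 8.58 ± 0.736 with shCon, shCr and CrOE EVs (SD, n = 3 each).

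**Figure D2:**
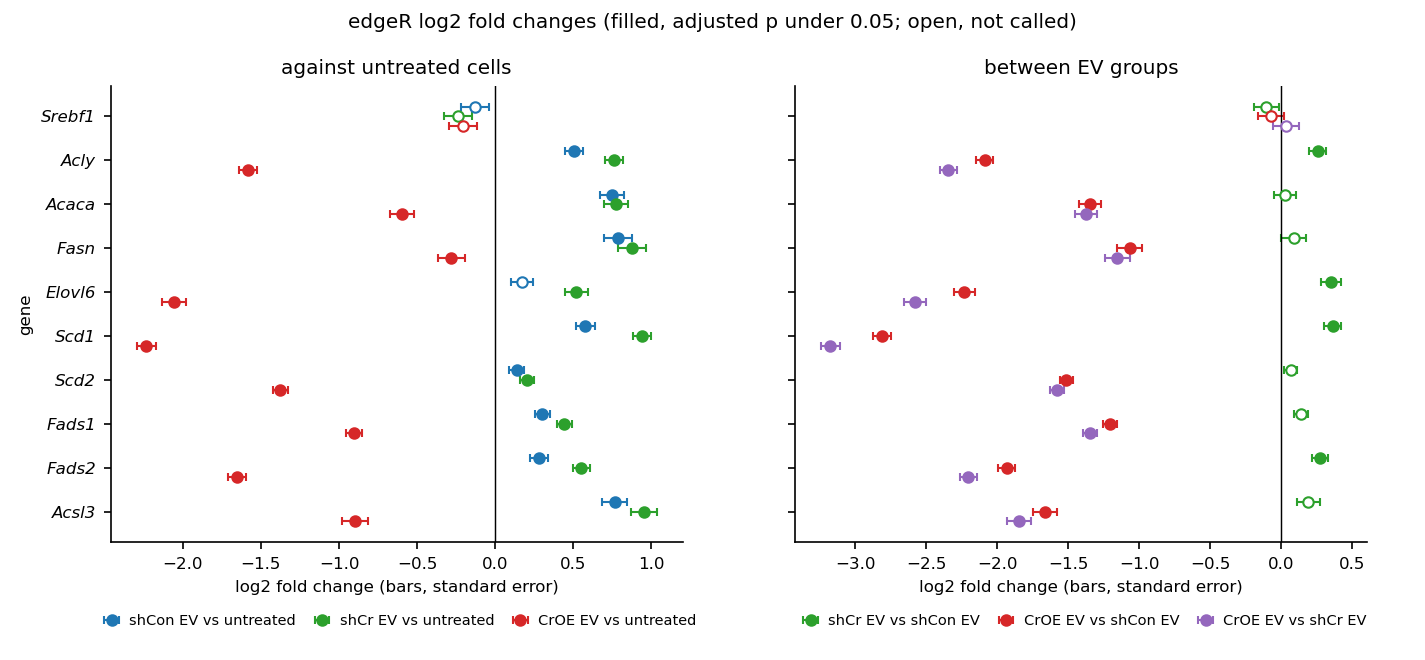
Log2 fold change of each gene (horizontal axis, with SE) in the 6 comparisons, against untreated cells on the left and between EV groups on the right. Filled dots were called (adjusted p under 0.05) and open dots were not; among the enzymes on the left, the red dots of CrOE EVs run from -0.28 for Fasn to -2.23 for Scd1.

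The next comparisons set the EV groups against each other, by the CRIPTO status of their donors. With shCr EVs, 4 of the 10 genes were higher than with shCon EVs and none was lower, against 5.22% and 3.51% of all genes tested. They were Scd1 (log2 fold change 0.36, SE 0.059, edgeR adjusted p = 0.00225), Elovl6 (0.35, SE 0.071, adjusted p = 0.00943), Fads2 (0.27, SE 0.056, adjusted p = 0.00986) and Acly (0.25, SE 0.058, adjusted p = 0.0165). Levels of 6 genes did not overlap, against 28% of all genes. Fads1 (0.14, SE 0.049, edgeR adjusted p = 0.103) and Acsl3 (0.19, SE 0.081, adjusted p = 0.192) were the other 2 of those 6 and were not called. The remaining values were 0.026 for Acaca (SE 0.076), 0.086 for Fasn (SE 0.088), 0.066 for Scd2 (SE 0.047) and -0.11 for Srebf1 (SE 0.089). The median of the 10 genes was 0.165, beside 0.00432 for all genes.

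Of these 4 calls, that of Scd1 held in every alternative fit and with each library left out. A model of the 2 groups alone left 2 genes called, without Acly (edgeR adjusted p = 0.0677) and Elovl6 (0.0657). Without shCon EV replicate 1 there were also 2, without Acly (0.0997) and Fads2 (0.0609). Leaving out shCon EV replicate 2 or shCr EV replicate 2 removed Acly (0.0649 and 0.0587), and leaving out shCon EV replicate 3 removed Elovl6 (0.0502).

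With CrOE EVs, 9 of the 10 genes were lower than with shCon EVs and none was higher, against 36.1% and 36.5% of all genes tested. Against shCr EVs, 9 were likewise lower and none higher, where 37% and 36.9% of all genes were called. Levels of 9 genes did not overlap in either comparison, against 80.5% and 74% of all genes. The median log2 fold change of the 10 genes was -1.59 against shCon EVs and -1.71 against shCr EVs, beside 0.00746 and 0.00761 for all genes. The estimates against shCon EVs ran from -2.81 for Scd1 (SE 0.064), a 7.03-fold lower level, to -1.07 for Fasn (SE 0.089), a 2.10-fold lower level. Between them stood Elovl6 at -2.23 (SE 0.075), Acly at -2.09 (SE 0.060), Fads2 at -1.93 (SE 0.059) and Acsl3 at -1.66 (SE 0.084). Scd2 was at -1.51 (SE 0.048), Acaca at -1.35 (SE 0.078) and Fads1 at -1.21 (SE 0.050). The largest edgeR adjusted p of the 9 was 1.95e-07, and each of the 9 differed by at least 2-fold. Against shCr EVs they ran from -3.18 for Scd1 (SE 0.065), 9.03-fold lower, to -1.16 for Fasn (SE 0.089), 2.23-fold lower.

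The enzymes' proportions within a library differed between groups too. The ratio of Scd1 to Scd2 CPM was 0.244 ± 0.00385 (SD, n = 3) in untreated cells, 0.331 ± 0.00330 with shCon EVs, 0.406 ± 0.0259 with shCr EVs and 0.134 ± 0.00108 with CrOE EVs, and no group overlapped with another. The ratio of Fads2 to Fads1 was 0.526 ± 0.0109, 0.518 ± 0.00432, 0.567 ± 0.00317 and 0.313 ± 0.00701 in the same order. Untreated and shCon EV libraries overlapped here, and the other groups were separate. Relative to Fasn, Scd1, Scd2, Elovl6 and Acly were each lowest with CrOE EVs, with no overlap with any other group, and each was also lower with shCon EVs than in untreated cells without overlap. In the order untreated, shCon EVs and CrOE EVs, Scd1 to Fasn was 0.715 ± 0.0823, 0.613 ± 0.0123 and 0.183 ± 0.0123, and Scd2 to Fasn was 2.93 ± 0.301, 1.85 ± 0.0335 and 1.36 ± 0.0811. Elovl6 to Fasn was 0.231 ± 0.0310, 0.149 ± 0.00206 and 0.0667 ± 0.00330, and Acly to Fasn was 1.07 ± 0.0827, 0.872 ± 0.0488 and 0.430 ± 0.0282. With shCr EVs the 4 ratios to Fasn were 0.755 ± 0.164, 1.85 ± 0.281, 0.182 ± 0.0458 and 0.986 ± 0.0872 in the same gene order. Ratios were not tested.

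**Figure D3:**
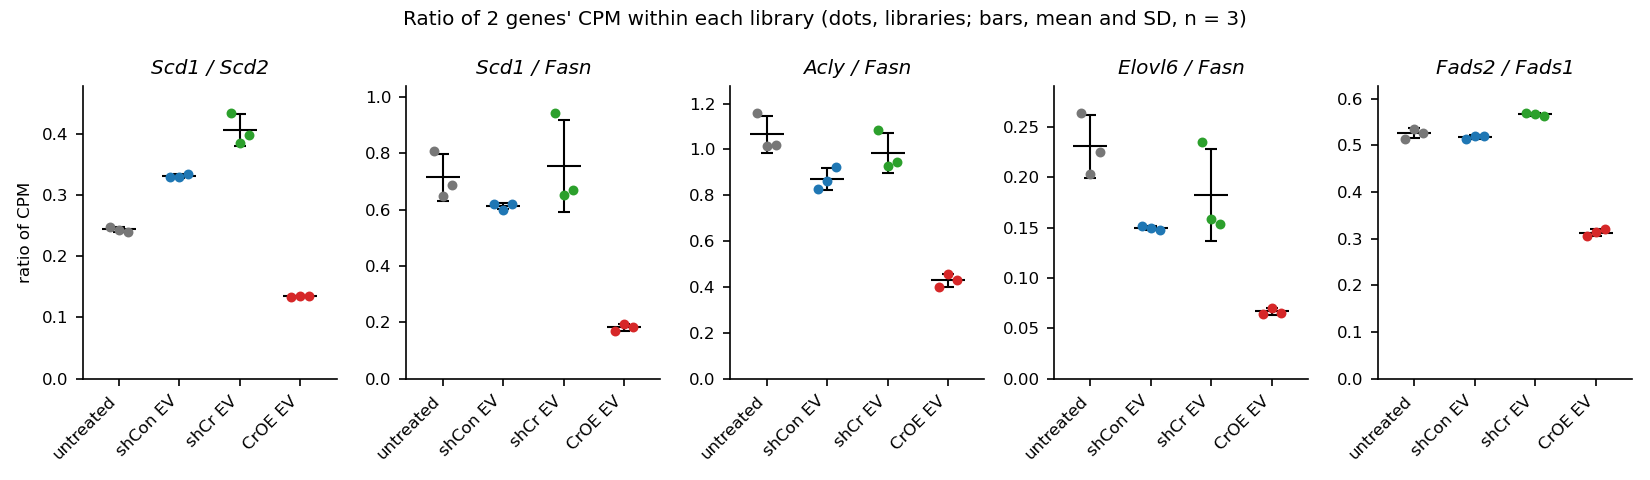
Ratio of the CPM of 2 genes within each library (linear axes from 0), by group. Dots are the 3 libraries and bars the mean and SD; the CrOE EV libraries are lowest in all 5 panels, and Scd1 to Scd2 is separate in all 4 groups.

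Levels of different genes can be set side by side only per length, here CPM per kb of merged GENCODE M21 exons, an annotation that may differ from the authors'. In untreated cells the order of levels per kb began with Scd2 (485 ± 7.49 CPM per kb, SD, n = 3), Acly (183 ± 6.15), Fads1 (133 ± 3.17), Scd1 (132 ± 1.06) and Fads2 (102 ± 4.02). Lower levels per kb were those of Fasn (83.2 ± 8.58), Elovl6 (32.4 ± 1.11), Acsl3 (26.2 ± 0.987), Acaca (15.0 ± 1.30) and Srebf1 (14.7 ± 0.848). Fads1 and Scd1 did not differ beyond their spread, nor did Acaca and Srebf1. With CrOE EVs, Scd1 stood at 28.1 ± 1.45 CPM per kb, below Fasn at 68.5 ± 1.07, and Elovl6 at 7.77 ± 0.289 was the lowest of the 10. Scd2 was highest per kb in all 4 groups.

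Likeness of pattern was measured as the root-mean-square difference of log2 CPM over the 12 libraries after centring each gene, so that 0 is the same pattern. Among the 10 genes, Acly and Fads2 were closest at 0.101, and each was the other's 3rd nearest of the 11428 genes compared. Next were Scd2 and Fads1 (0.173), Elovl6 and Fads2 (0.185), Acaca and Acsl3 (0.194) and Acaca and Fads1 (0.197). The farthest pair was Srebf1 and Scd1 at 1.24, and Fasn and Scd1 were 0.846 apart. The genes most like Fasn were Rnf157 (0.115), the glutamine transporter gene Slc1a5 (0.119), Gpr153 (0.121), Tmem80 (0.125) and Gaa (0.127). Those most like Scd1 were Nsdhl (0.0984), a cholesterol synthesis enzyme, then Lrrn4cl (0.125), Epha7 (0.126), Mturn (0.136) and Rgs3 (0.143). The points share libraries and depth, and these values are a description.

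Other genes of fatty acid metabolism, in 7 lists of 64 genes of which 60 were tested, were called in both directions. With shCon EVs there were 18 higher and 9 lower than in untreated cells, with shCr EVs 23 higher and 6 lower, and with CrOE EVs 17 higher and 30 lower. These are 30% and 15%, 38.3% and 10% and 28.3% and 50% of the 60, beside 18% and 20.2%, 18.4% and 18.8%, and 36.7% and 37% of all genes tested. The same shares of all genes, and the all-gene medians of 0.00694, 0.0199 and 0.00775, stand behind each list that follows. Among 11 tested regulators of SREBP and lipogenic transcription there were 5 higher and 0 lower with shCon EVs, 6 higher and 0 lower with shCr EVs and 3 higher and 5 lower with CrOE EVs, at median log2 fold changes of 0.21, 0.28 and -0.14. Srebf2, which encodes the SREBP of cholesterol synthesis, had 639 ± 15.9 CPM in untreated cells and 739 ± 21.4, 777 ± 62.9 and 309 ± 13.8 with shCon, shCr and CrOE EVs (SD, n = 3 each). It was called in all 3 comparisons with untreated cells (log2 fold changes 0.21, 0.28 and -1.05; edgeR adjusted p = 0.0179, 0.00307 and 5.85e-09), and the difference from Srebf1 was not tested. Insig1, which holds SREBPs in the endoplasmic reticulum and is itself an SREBP target, had log2 fold changes of 0.61, 0.74 and -1.54 (edgeR adjusted p = 3.08e-05, 4.89e-06 and 7.03e-10). Scap, the SREBP escort, had 0.068, 0.25 and -0.57 (edgeR adjusted p = 0.388, 0.00500 and 1.35e-06), and Mbtps1, an SREBP protease, -0.055, -0.029 and -0.46 (edgeR adjusted p = 0.344, 0.635 and 6.43e-07). The 3 regulators called higher with CrOE EVs, named after their values were seen, were Mbtps2, the other SREBP protease (0.93, edgeR adjusted p = 2.81e-07), Mid1ip1, an activator of the carboxylase (0.51, adjusted p = 4.03e-06), and Nr1h2, a liver X receptor (0.43, adjusted p = 0.00138). With shCon and shCr EVs, Mid1ip1 was called higher too (0.70 and 0.74, edgeR adjusted p = 1.35e-06 and 7.31e-07). So was Nr1h2 (0.30 and 0.32, edgeR adjusted p = 0.02995 and 0.02259), while Mbtps2 was not called (0.14 and 0.11, edgeR adjusted p = 0.205 and 0.334). Mid1ip1 was lower with CrOE EVs than with shCon and shCr EVs (-0.19 and -0.24, edgeR adjusted p = 0.00823 and 0.00226).

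Of 9 genes that supply acetyl-CoA and NADPH there were 5 higher and 1 lower with shCon EVs, 6 higher and 0 lower with shCr EVs and 1 higher and 5 lower with CrOE EVs (median log2 fold changes 0.22, 0.36 and -0.61). Slc25a1, the citrate exporter that feeds Acly, had log2 fold changes of 0.22, 0.47 and -1.44 (edgeR adjusted p = 0.0192, 1.00e-04 and 4.82e-10). Idh1, an NADPH-yielding dehydrogenase, had -0.13, 0.096 and -2.21 (edgeR adjusted p = 0.184, 0.324 and 2.79e-11). Of the pentose phosphate enzymes, Pgd was higher in all 3 EV groups, at 0.47, 0.46 and 0.63 (edgeR adjusted p = 5.15e-05, 5.64e-05 and 5.52e-07). G6pdx had 0.23, 0.25 and 0.071 (edgeR adjusted p = 0.00467, 0.00263 and 0.239). Acss2, which makes acetyl-CoA from acetate, was singled out after its values were seen. It had 117 ± 2.93 CPM in untreated cells and 169 ± 14, 257 ± 5.85 and 3.1 ± 0.377 with shCon, shCr and CrOE EVs (SD, n = 3 each). The last is a log2 fold change of -5.23 (SE 0.090, edgeR adjusted p = 1.06e-13).

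In the elongation cycle, 10 tested genes other than Elovl6 gave 3 higher and 2 lower with shCon EVs, 5 higher and 2 lower with shCr EVs and 2 higher and 6 lower with CrOE EVs (median log2 fold changes 0.075, 0.28 and -0.37). Tecr, the last enzyme of that cycle, had log2 fold changes of 0.42, 0.73 and -0.97 (edgeR adjusted p = 0.000431, 4.23e-06 and 4.37e-08). Elovl5, an elongase of polyunsaturated chains, had 0.17, 0.56 and -1.05 (edgeR adjusted p = 0.0552, 1.75e-05 and 7.44e-09). Hsd17b12, a ketoreductase of the cycle, had 0.15, 0.48 and -0.47 (edgeR adjusted p = 0.192, 0.000701 and 0.000237) and Elovl1 0.15, 0.28 and -0.27 (edgeR adjusted p = 0.0357, 0.000834 and 0.000399). Other members, named after their values were seen, differed from these 4. Over the 10 tested genes the log2 fold changes with CrOE EVs ran from -4.93 to 1.84. Elovl4, an elongase of very long chains, rose by 1.84 with CrOE EVs (edgeR adjusted p = 9.65e-08) and the dehydratase gene Hacd3 by 0.49 (adjusted p = 8.22e-06). The related genes Hacd1 and Hacd2 fell by 0.57 and 0.60 with shCon EVs (edgeR adjusted p = 0.000465 and 0.000289).

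Of 6 tested genes of other desaturases and their electron supply there were 1 higher and 1 lower with shCon EVs, 2 higher and 0 lower with shCr EVs and 2 higher and 3 lower with CrOE EVs (median log2 fold changes 0.061, 0.29 and -0.11). Cyb5r3, the reductase that passes electrons to cytochrome b5, fell by 1.87 on the log2 scale with CrOE EVs (edgeR adjusted p = 1.12e-11). The cytochromes Cyb5a and Cyb5b fell by 1.20 and 0.32 (edgeR adjusted p = 6.86e-08 and 9.01e-05). Fads3, of the same family as Fads1 and Fads2, went the other way, from 186 ± 10.1 CPM in untreated cells to 359 ± 18 with CrOE EVs (SD, n = 3 each), a log2 fold change of 0.95 (SE 0.060, edgeR adjusted p = 1.01e-08). With shCon and shCr EVs it had -0.028 and -0.073 (edgeR adjusted p = 0.745 and 0.364).

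Among 8 tested acyl-CoA synthetases and transporters other than Acsl3 there were 1 higher and 2 lower with shCon EVs, 1 higher and 2 lower with shCr EVs and 1 higher and 4 lower with CrOE EVs (median log2 fold changes -0.0078, 0.088 and -0.32). Acsl4 and Acsl5, of the same family as Acsl3, had log2 fold changes of 0.071 and -0.041 with CrOE EVs (edgeR adjusted p = 0.585 and 0.598). The transporter Slc27a4 rose by 0.19 with CrOE EVs (edgeR adjusted p = 0.00343), and the fatty acid binding protein gene Fabp5 had -0.20 (edgeR adjusted p = 0.0599). Of 7 genes of the second carboxylase and mitochondrial fatty acid synthesis there were 0 higher and 2 lower with shCon EVs, 0 higher and 1 lower with shCr EVs and 2 higher and 4 lower with CrOE EVs (median log2 fold changes -0.10, -0.021 and -0.34). In that list Cbr4 fell by 1.25 and Mcat fell by 0.34 with CrOE EVs (edgeR adjusted p = 5.41e-09 and 5.43e-05). Mecr rose by 0.67 (edgeR adjusted p = 1.73e-06), and Ndufab1 had -0.089 (edgeR adjusted p = 0.233). Mlxipl, Elovl3, Fads6 and Cd36 did not pass the filter on low counts.

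The 11 cholesterol synthesis and uptake genes, known targets of SREBP-2 listed for comparison, were all higher with shCon and shCr EVs and all lower with CrOE EVs. Their median log2 fold changes were 0.370, 0.489 and -1.42. Hmgcs1, an early enzyme of that pathway, had 0.21, 0.25 and -2.14 (edgeR adjusted p = 0.0234, 0.00928 and 1.58e-11). The later enzymes Cyp51 and Sqle had 0.57, 0.66 and -1.29 (edgeR adjusted p = 6.78e-05, 1.65e-05 and 4.77e-09) and 0.35, 0.47 and -1.12 (edgeR adjusted p = 0.000163, 1.10e-05 and 4.35e-10). Fdps, which makes farnesyl diphosphate, had 0.39, 0.60 and -0.98 (edgeR adjusted p = 0.000299, 7.16e-06 and 1.06e-08).

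**Figure D4:**
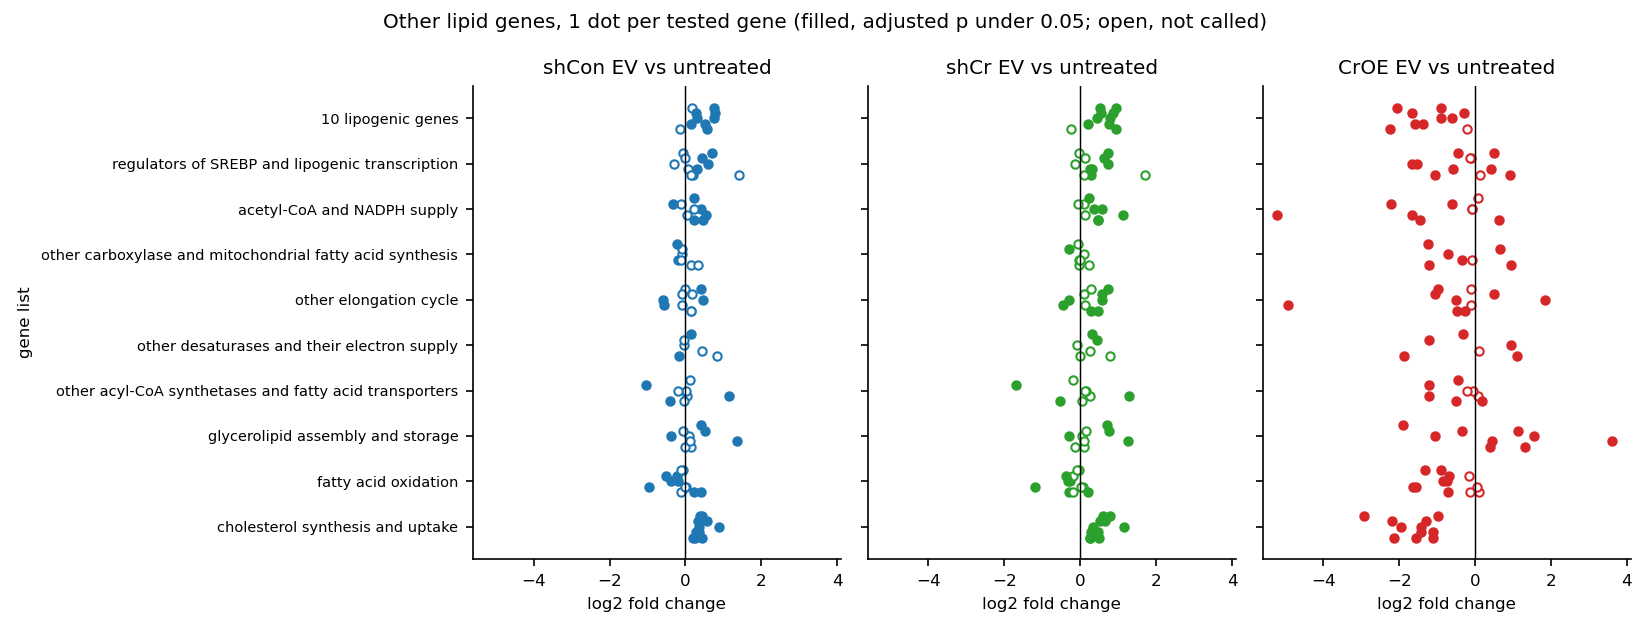
Log2 fold change against untreated cells (horizontal axis) of each tested gene, by list (vertical axis), for the 3 EV groups. Filled dots were called (adjusted p under 0.05) and open dots were not; with CrOE EVs the 11 cholesterol genes all lie below 0, and the glycerolipid list has 6 filled dots above 0 and 3 below.

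Cell type markers moved as well. The 8 fibroblast markers were all detected, summing to 18720 to 20220 CPM in untreated cells, 24080 to 24390 with shCon EVs, 14500 to 16790 with shCr EVs and 8424 to 8790 with CrOE EVs, where 7 of the 8 were lower than in untreated cells. Of 8 markers of adipocytes, cells known for lipogenesis, 3 passed the filter (Fabp4, Lipe and Pparg), and Cidec and Lep were at 0 in every library. All 3 were called lower than in untreated cells with CrOE EVs and with shCon EVs, and 2 of the 3 with shCr EVs. Of all genes tested, 37%, 20.2% and 18.8% were lower with CrOE, shCon and shCr EVs. The 8 adipocyte markers summed to 53.4 to 60.6 CPM in untreated cells, 35.1 to 35.9 with shCon EVs, 39.4 to 41.6 with shCr EVs and 13.8 to 15.0 with CrOE EVs. Both lists were lowest with CrOE EVs, together with the enzymes. With shCon and shCr EVs the adipocyte sum lay below untreated cells, while the enzyme means were above them. The part of both lists in the enzyme result was not tested. Epithelial markers summed to at most 2.09 CPM, with Epcam at 0, endothelial markers to at most 2.56 and leukocyte markers to at most 10.5.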

How the data were processed

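Bulk RNA of 12 libraries of 3T3 cells was made into directional poly(A) libraries, per the labels' protocols. The authors deposited estimated counts per gene symbol; 39.8% of these values were not whole numbers, and they were rounded here. The submitters' processing notes name featureCounts and mm39, and the aligner and other settings are not given in the sources used here. Genes were kept by filterByExpr, scaled by TMM and tested in edgeR 4.0.16 (R 4.3.3, limma 3.58.1) by the quasi-likelihood F-test, in 1 fit of all 12 libraries with a mean per group (8 residual degrees of freedom). Benjamini-Hochberg adjustment ran over the 14279 genes tested, and an adjusted p under 0.05 was a call. SEs were derived from the F statistic. Log2 CPM used a prior count of 2, and likeness was taken over genes whose average log2 CPM reached 1. Depth, 25960054 to 37774020 counts per library, sets the counting precision, and PCR copies were not separated from molecules. The genes named by rule are the 10 genes studied, the 4 most abundant tested genes of each list, and the 5 genes nearest to Fasn and to Scd1. Of these, 1 gene is not reported here. Named outside the rule were cell type markers, genes that share sequence or exons with the 10, and list genes chosen after their values were seen, which the text marks (Acss2, Mbtps2, Mid1ip1, Nr1h2, Elovl4, Hacd1, Hacd2 and Hacd3). The 10 genes studied, the genes named outside the rule and the lists were all chosen with earlier results of these data known. On data simulated from the real libraries with 200 changed genes, edgeR recovered 94 of 100 genes changed 1.5-fold and 99 of 100 changed 2-fold. This was for CrOE EVs against untreated cells, with 10 false calls among 13979 genes. Every simulated gene had the same spread (dispersion 0.00793) and few genes changed, whereas 10524 of the 14279 real genes were called in that comparison. The simulation therefore does not show how the test performs with spread that differs by gene or with most genes changed. The alternatives tried were DESeq2 1.42.0, its median-of-ratios factors within edgeR, testing every gene, requiring 10 counts in each library, a replicate block, fitting only the 2 groups compared, leaving out each library in turn, and a fold change of at least 2. In the table, 27 symbols had become dates and were not named.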

Additional observations from a re-analysis of the deposited data

How the results depend on the processing

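Of the log2 fold changes of the 10 genes under the alternatives, 690 kept their direction and their side of the threshold, 12 newly passed it, 15 no longer passed it and 3 changed sign. The 3 were Acaca in shCr against shCon EVs without shCon EV replicate 3 (-0.013) and without shCr EV replicate 1 (-0.024), in a range up to 0.080 with 1 library left out, and Srebf1 in CrOE against shCr EVs without shCr EV replicate 1 (-0.075), in a range up to 0.10. None of these was called, and the cause was not tested. A required fold change of 2, which by construction leaves fewer calls, left 0, 0 and 5 of the 10 genes for shCon, shCr and CrOE EVs against untreated cells and 0 for shCr against shCon EVs. Of all genes it left 863, 897, 4245 and 108 in these comparisons, and 3884 and 4223 for CrOE against shCon and shCr EVs. In shCr against shCon EVs, a model of the 2 groups alone called 2 of the 10 and 641 of all genes, where 4 and 1247 were called from 12 libraries. Leaving out 1 library there gave 2 to 4 and 632 to 1396, with 688, 632 and 666 of all genes without shCon EV replicates 1, 2 and 3. In 0 of 6 comparisons was every correlation between same-numbered libraries over 0.1 (-0.204 to 0.315). For shCr EVs against untreated cells the values were 0.315, 0.145 and -0.132. That rule has no baseline from differently numbered libraries, so it cannot show that effects shared by replicate number are absent. With the number as a replicate block, 8, 10 and 10 of the 10 genes were called for shCon, shCr and CrOE EVs against untreated cells. Of all genes, 5691, 5529 and 10657 were called there. The block gave 4 of the 10 and 1281 of all genes for shCr against shCon EVs. For CrOE against shCon and shCr EVs it gave 9 of the 10 each, and 10511 and 10677 of all genes. Among the 10 genes, Srebf1 was the gene added against untreated cells (edgeR adjusted p = 0.00811 with shCr and 0.00948 with CrOE EVs). Srebf1 was also called with CrOE EVs under median-of-ratios factors (0.0452), at least 10 counts (0.0317) and 2 groups alone (0.00914). DESeq2 called Fads1 in shCr against shCon EVs (adjusted p = 0.0342).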

Other observations

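Genes of glycerolipid assembly and storage, which use the fatty acids made, gave 6 higher and 3 lower than in untreated cells among 9 genes with CrOE EVs, and 3 higher and 1 lower with shCon EVs, as with shCr EVs (median log2 fold changes 0.13, 0.11 and 0.46 with shCon, shCr and CrOE EVs). Of all genes tested, 36.7% were higher and 37% lower with CrOE EVs, 18% and 20.2% with shCon EVs, and 18.4% and 18.8% with shCr EVs. Plin2, a lipid droplet coat protein, was higher in all 3 EV groups, at 103 ± 5.18 CPM in untreated cells and 148 ± 6.17, 174 ± 2.49 and 226 ± 12.9 with shCon, shCr and CrOE EVs (SD, n = 3 each). Its log2 fold changes were 0.53, 0.75 and 1.14 (edgeR adjusted p = 1.31e-05, 4.84e-07 and 1.05e-09). Gpat4, a glycerol-3-phosphate acyltransferase, rose by 1.56 with CrOE EVs (edgeR adjusted p = 4.19e-12) and Lpin2 by 1.32 (edgeR adjusted p = 1.42e-09). Lpin1, a phosphatidate phosphatase like Lpin2, rose by 0.41 and 0.71 with shCon and shCr EVs and fell by 1.89 with CrOE EVs (edgeR adjusted p = 3.08e-05, 2.50e-07 and 3.78e-12).

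Of 12 fatty acid oxidation genes there were 0 higher and 8 lower with CrOE EVs, 2 higher and 5 lower with shCon EVs and 1 higher and 5 lower with shCr EVs, beside the same shares of all genes. The median log2 fold changes of the 12 were -0.12, -0.19 and -0.72 with shCon, shCr and CrOE EVs. Hadha, a mitochondrial oxidation enzyme, had -0.38, -0.33 and -0.73 with shCon, shCr and CrOE EVs (edgeR adjusted p = 8.14e-05, 0.000206 and 2.85e-08). The mitochondrial dehydrogenase gene Acadl had 0.24, 0.20 and -0.12 in the same order (edgeR adjusted p = 0.00764, 0.0196 and 0.0818). Cpt1a, which admits fatty acids to mitochondria, was the 1 gene of the 12 called between shCr and shCon EVs in the main fit. Of all genes, 5.22% were higher and 3.51% lower in that comparison. With median-of-ratios factors, DESeq2 or at least 10 counts in every library, 2 of the 12 were called. Cpt1a had 95.5 ± 3.69 CPM in untreated cells, 128 ± 4.37 with shCon EVs, 77.7 ± 4.41 with shCr EVs and 104 ± 3.09 with CrOE EVs (SD, n = 3 each). The shCr EV level was lower than the shCon EV level, at a log2 fold change of -0.72 (SE 0.055, edgeR adjusted p = 9.70e-06).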
